A study of Mus musculus with 8 samples.

Results

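The 42 genes described here encode enzymes that handle glutathione, peroxides and superoxide in mouse liver. They were chosen by name, as every gene whose symbol starts with Gsta, Gstm, Gstp, Gstt, Gstk, Gsto, Mgst, Gpx, Prdx or Glrx, or is Gss, Gsr, Ggt1, Sod1, Sod2 or Sod3, and which has an array cluster annotated with that symbol alone. They are 42 of 22180 genes with such a cluster. No cluster of this kind stood for Ggt1, Gsta1, Gsta2, Gstm5, Prdx1, Prdx5 or Prdx6, which were not analysed here, and 9 clusters that name a gene of these classes together with other genes were left out. Glrx5 had 2 clusters and every other gene 1, and the cluster with the highest mean was used. The 42 include Gpx2-ps1, which by its name is a pseudogene.

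The livers came from 5 male Abhd15 KO mice and 3 male wild-type (WT) mice, all on the C57BL/6J background and on normal chow, aged 14 weeks according to the design text, while the sample labels speak of up to 14 weeks on the diet. All 8 mice were fasted overnight and refed for 1 hour before the liver was taken. Abhd15, a member of the alpha/beta hydrolase fold family, has been studied mainly in fat cells. The sources used here do not say how the knockout was made. Each liver was measured on 1 Mouse Gene 2.0 ST array, whose deposited values are on a log2 scale, with a probe group (transcript cluster) standing for a gene or a piece of one.

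Glutathione is a tripeptide thiol that liver cells hold in high amounts. Glutathione S-transferases couple it to reactive or foreign molecules. Glutathione peroxidases spend it to reduce peroxides, glutathione reductase regenerates it with NADPH, peroxiredoxins reduce peroxides with electrons mostly from thioredoxin, glutaredoxins free proteins that became linked to glutathione, and superoxide dismutases turn superoxide into hydrogen peroxide. The liver is known for its high content of transferases, many of which are induced by foreign compounds through the transcription factor NRF2 and by nuclear receptors.

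Over 41345 clusters, the median of an array was 2.99 to 3.05. Across clusters, which are not independent replicates, the correlation between any 2 arrays lay between 0.963 and 0.971. The first principal component (17.99% of the variance) set KO livers 1 and 2 off from the other 6, and the second (15.6%) did so for KO liver 4. Abhd15 itself read 5.14, 5.04, 5.21, 5.17 and 5.04 in KO livers, against 5.65, 5.81 and 5.46 in WT livers. The groups did not overlap (log2 difference -0.52, SE 0.129, two-sided exact permutation p = 0.0179, the smallest that 56 splits can give), and the adjusted limma p was 0.795. A dimmer Abhd15 cluster had a log2 difference of -0.68 with overlapping groups (exact permutation p = 0.161). Where the probes lie relative to the deletion is not known here. All 8 hepatocyte markers had a mean of at least 5, and their mean log2 level lay between 11.27 and 11.51 in KO livers and between 11.38 and 11.44 in WT livers. Of the 8, only Tat did not overlap, above WT (log2 difference 0.21), beside 1.99% of all clusters.

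No gene of the set passed the test between genotypes. Of the 42 genes, 19 were higher and 23 lower in KO liver, and the median log2 difference was -0.02, beside -0.00 over all 23521 clusters tested. Of the 29 genes with a mean log2 value of at least 5, 18 were lower (median -0.03). Among all 7699 clusters with such a mean, 4614 were lower (median -0.04). None passed an adjusted p of 0.05 with limma, and neither did any of the 23521 clusters (0%). At an unadjusted p under 0.05 there were 4 genes (9.52%), beside 6.08% of all clusters. Gstp3 was the 1 higher gene (2.75% of all clusters), and Gstt1, Gstm4 and Glrx were the 3 lower ones (3.32% of all clusters). Livers of the 2 genotypes did not overlap in 3 genes (7.14%), beside 4.43% of all clusters. Gstp3 lay above WT (1.99% of all clusters), and Gstt1 and Gstk1 lay below WT (2.44% of all clusters). These counts rest on so few genes that both shares are imprecise, and they were not tested against the background.

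The interval of each difference shows how far a change in the array value is limited. The 95% interval lay within 0.5 on the log2 scale of no difference in 19 genes and within 1 in 40 genes. The other 2, Gpx6 and Gstm3, had wide intervals, the first at a dim level. A mean of at least 5 was reached by 29 genes, of which 16 had an interval within 0.5 and 28 had one within 1. The other 13 were dim, and whether their signal exceeds background is not shown by the deposited values. A narrow interval in a dim gene therefore need not limit a change in its RNA.

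**Figure D1:**
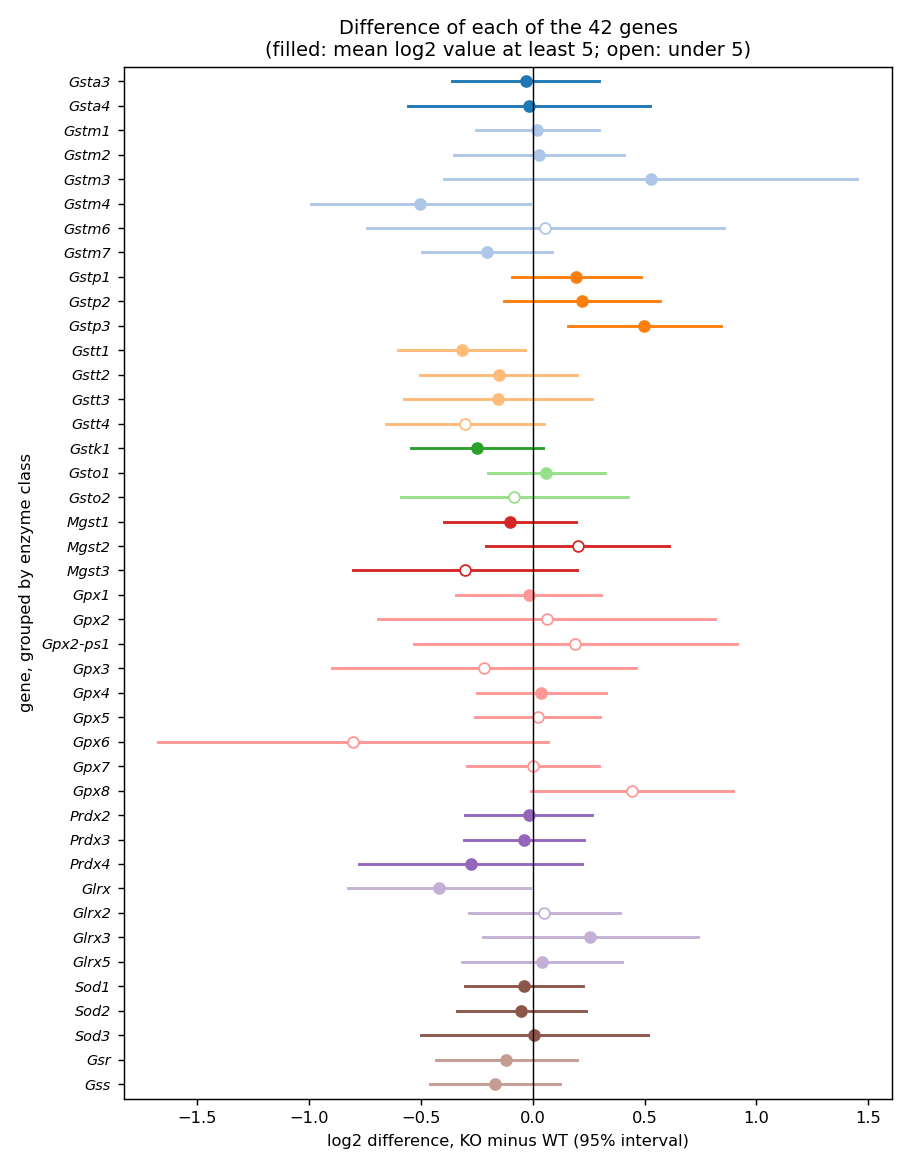
Log2 difference, KO minus WT, of each of the 42 genes with its 95% interval from limma, grouped by enzyme class and coloured by class. Points are filled where the mean log2 value is at least 5 and open where it is lower. The intervals of Gstp3, Gstt1, Gstm4 and Glrx do not reach 0, and that of Gpx6 is wide.

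The pi class is considered first, because it held the gene with the smallest p. Gstp1, Gstp2 and Gstp3 are neighbours on chromosome 19, and Gstp1 is the main pi-class transferase of mouse liver. The 250 bases before each gene's start (RefSeq, GRCm38.p6) are shown because all 3 genes had a higher mean in KO liver, and they show how far the neighbours share an upstream region. Capitals mark TGAGTCA, which reads TGACTCA on the other strand and is the core letters of an AP-1 element. It was chosen after the sequences were seen. The regions lie on the minus strand at chr19:4037913-4038162 (Gstp1), chr19:4042222-4042471 (Gstp2) and chr19:4059448-4059697 (Gstp3).
Gstp1: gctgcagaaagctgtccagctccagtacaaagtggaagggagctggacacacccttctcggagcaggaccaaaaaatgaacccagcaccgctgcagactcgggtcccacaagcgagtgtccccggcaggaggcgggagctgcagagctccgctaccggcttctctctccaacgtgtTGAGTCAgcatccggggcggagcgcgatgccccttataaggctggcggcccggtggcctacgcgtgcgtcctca
Gstp2: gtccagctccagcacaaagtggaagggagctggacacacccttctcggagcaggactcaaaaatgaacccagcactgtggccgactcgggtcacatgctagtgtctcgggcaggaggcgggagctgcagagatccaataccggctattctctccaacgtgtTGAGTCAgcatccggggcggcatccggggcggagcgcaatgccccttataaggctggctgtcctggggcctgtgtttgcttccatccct
Gstp3: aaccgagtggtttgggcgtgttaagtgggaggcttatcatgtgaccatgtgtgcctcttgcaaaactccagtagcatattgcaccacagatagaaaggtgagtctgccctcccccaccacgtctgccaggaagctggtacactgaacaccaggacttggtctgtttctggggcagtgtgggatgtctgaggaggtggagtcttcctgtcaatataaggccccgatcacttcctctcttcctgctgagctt

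The upstream regions of Gstp1 and Gstp2 were alike, with 208 identical bases over 265 aligned columns (78.5%). That of Gstp3 shared 50.7% with Gstp1 and 51.9% with Gstp2, and the pairs among Gstt1, Gstt3 and Gstt4 shared 48.2% to 50.2% in the same kind of alignment. The marked letters start at base -74 in Gstp1 and at base -89 in Gstp2, and are not in the Gstp3 window. In windows of 300 bases (250 before to 50 after the start), searched on both strands, they were found in 5.95% of 27025 genes and in 4 of the 37 members with a promoter in the table, which were Gstp1, Gstp2, Glrx and Mgst2.

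Gstp3, a less studied gene of the pi class, read 7.11, 7.45, 6.99, 7.07 and 7.18 in KO livers, against 6.62, 6.91 and 6.46 in WT livers. Every KO liver lay above every WT liver. Its mean was 7.16 ± 0.177 (SD, n = 5) in KO and 6.66 ± 0.228 (SD, n = 3) in WT, a log2 difference of 0.50 (SE 0.154) or 1.41-fold, with an unadjusted limma p of 0.00854 and an adjusted p of 0.795. The unadjusted p stayed under 0.05 in all 17 alternatives run, with a highest value of 0.0478 without WT liver 3, and the adjusted p lay between 0.452 and 0.973 in them.

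Gstp1 read 11.89, 12.23, 12.14, 12.01 and 11.98 in KO livers, against 11.78, 11.97 and 11.82 in WT livers. KO livers 2 to 5 lay above every WT liver, and KO liver 1 lay below WT liver 2. The log2 difference was 0.19 (SE 0.13, adjusted p = 0.874). Gstp2 read 8.81, 9.11, 9.29, 8.81 and 8.71 in KO livers, against 8.67, 8.79 and 8.72 in WT livers, so that KO livers 2 and 3 were the highest and KO liver 5 lay within the WT range. Its log2 difference was 0.22 (SE 0.157, adjusted p = 0.882). Gstp1 and Gstp2 have closely similar sequences, and 1 of the clusters left out names both, so their probes may not separate them.

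**Figure D2:**
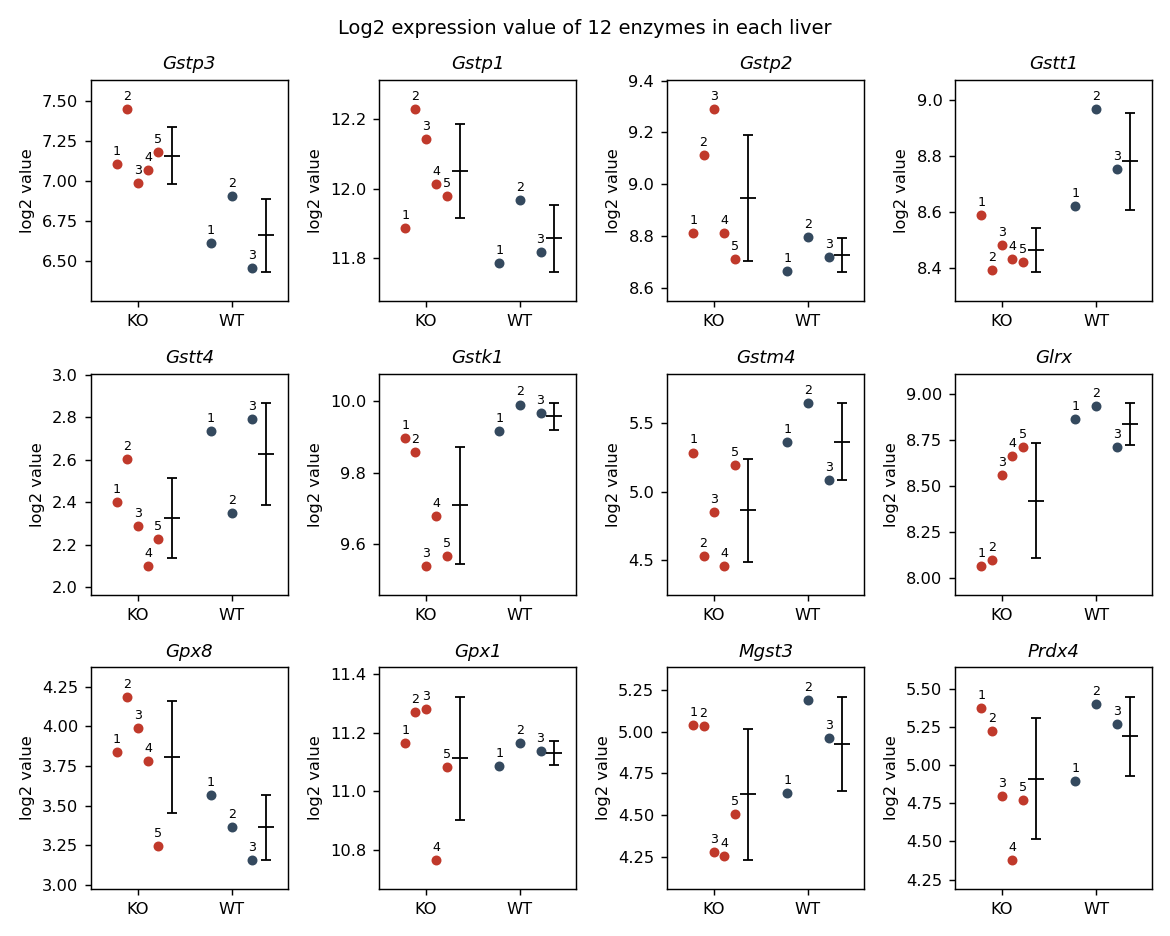
Log2 value of 12 of the genes in each liver, KO at the left and WT at the right of each panel, numbered by replicate, with mean and SD bars beside the points. The vertical scale differs between panels. KO livers lie above all WT livers in Gstp3 and below all WT livers in Gstt1 and Gstk1, while the groups overlap in the other 9 genes.

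In the theta class, whose enzymes are known for acting on small halogenated molecules, all 4 genes had a lower mean in KO liver. Gstt1, Gstt2, Gstt3 and Gstt4 lie together on chromosome 10. Gstt1 read 8.59, 8.39, 8.48, 8.43 and 8.42 in KO livers, against 8.62, 8.97 and 8.75 in WT livers. Every KO liver lay below every WT liver, with KO liver 1 and WT liver 1 nearly equal. The mean was 8.46 ± 0.0783 (SD, n = 5) in KO and 8.78 ± 0.175 (SD, n = 3) in WT, a log2 difference of -0.32 (SE 0.129), with an unadjusted p of 0.0322 and an adjusted p of 0.795 in limma. Without WT liver 2, the highest, the log2 difference was -0.22 (unadjusted p = 0.153), and over all 17 alternatives the adjusted p lay between 0.524 and 0.975.

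Gstt4, at a dim level, had a log2 difference of -0.30 (SE 0.159), Gstt3 one of -0.16 (SE 0.189) and Gstt2 one of -0.15 (SE 0.159). The groups overlapped in all 3. In Gstt3, KO livers 4 and 5 read 5.84 and 6.14 and KO livers 1 to 3 between 5.52 and 5.59, against 5.55, 6.18 and 5.95 in WT livers, so the spread within either genotype exceeded the difference.

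The kappa-class transferase Gstk1, a mitochondrial and peroxisomal enzyme, read 9.90, 9.86, 9.54, 9.68 and 9.57 in KO livers, against 9.92, 9.99 and 9.97 in WT livers. All KO livers lay below all WT livers, but KO livers 1 and 2 came close to them. The log2 difference was -0.25 (SE 0.133, unadjusted p = 0.0897, adjusted p = 0.843 with limma), and -0.36 without KO livers 1 and 2 (unadjusted p = 0.0299). Without WT liver 2 it was -0.23 (unadjusted p = 0.183), and the unadjusted limma p was under 0.05 in 3 of 17 alternatives.

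The mu-class genes, a cluster on chromosome 3 whose products conjugate many electrophiles, went in no common direction, with 4 of 6 higher and 2 lower. Gstm4 read 5.28, 4.53, 4.85, 4.46 and 5.19 in KO livers, against 5.36, 5.65 and 5.08 in WT livers. KO livers 1 and 5 lay above WT liver 3, so the groups overlapped. Its log2 difference was -0.50 (SE 0.221), with an unadjusted p of 0.0455 and an adjusted p of 0.82 in limma, and -0.36 without WT liver 2 (unadjusted p = 0.182).

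Gstm3 varied most between livers among the 29 genes with a mean of at least 5. It read 6.10, 6.50, 4.80, 6.13 and 4.94 in KO livers, against 4.56, 5.83 and 5.10 in WT livers. Each genotype held both high and low livers, and the log2 difference of 0.53 (SE 0.417, 95% interval -0.40 to 1.45) was smaller than the SD of 0.771 among KO livers. Gstm6 also spread widely, from 4.33 to 5.92 in KO livers and from 4.42 to 5.66 in WT livers, with a difference of 0.06 (SE 0.36). Gstm1, Gstm2 and Gstm7 had log2 differences of 0.02 (SE 0.124), 0.03 (SE 0.171) and -0.20 (SE 0.132). Genes of this class are closely related in sequence, so probes may be shared between them.

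Among the alpha class, Gsta3 and Gsta4 had nearly equal means in both genotypes. Gsta3, which mouse liver is known to use against aflatoxin, read 9.10, 9.18, 9.21, 9.37 and 9.28 in KO livers, against 8.96, 9.49 and 9.33 in WT livers, and WT livers held both the lowest and the highest value. The log2 difference of -0.03 (SE 0.149) had a 95% interval of -0.36 to 0.30. Gsta4, which removes 4-hydroxynonenal, a product of lipid peroxidation, had a difference of -0.02 (SE 0.244), with KO liver 4 lowest at 7.71 and KO liver 2 highest at 8.82.

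Of the omega class, known for reducing dehydroascorbate, Gsto1 read 8.68, 8.57, 8.83, 8.66 and 8.69 in KO livers, against 8.60, 8.64 and 8.63 in WT livers. The livers differed little, and the log2 difference was 0.06 (SE 0.118). The dim Gsto2 had a log2 difference of -0.08 (SE 0.229), with KO liver 5 and WT liver 3 high at 3.14 and 3.22 and the other 6 livers between 2.37 and 2.56.

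The membrane-bound transferases gave log2 differences of -0.10 (SE 0.134) for Mgst1, which protects membranes from lipid peroxides, 0.20 (SE 0.184) for the dim Mgst2 and -0.30 (SE 0.226) for Mgst3. Mgst3 read 5.04, 5.03, 4.28, 4.26 and 4.51 in KO livers, against 4.63, 5.19 and 4.96 in WT livers. KO livers 1 and 2 stood within the WT range and KO livers 3 to 5 below it.

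No glutathione peroxidase passed the test, and the 2 with a mean of at least 5, Gpx1 and Gpx4, differed by less than their standard errors. Gpx1, the main cytosolic selenium peroxidase, read 11.16, 11.27, 11.28, 10.77 and 11.08 in KO livers, against 11.09, 11.17 and 11.14 in WT livers. KO liver 4 was the lowest and the other livers lay within a narrow band. The log2 difference was -0.02 (SE 0.146), with a 95% interval of -0.34 to 0.31. Gpx4, which reduces lipid hydroperoxides in membranes and guards cells against ferroptosis, read 5.04, 5.13, 4.90, 5.30 and 5.07 in KO livers, against 5.14, 4.98 and 5.03 in WT livers, and its log2 difference was 0.04 (SE 0.131, 95% interval -0.25 to 0.33). The mean of Gpx4, 5.07, lay just above the level of 5, and KO liver 3 and WT liver 2 read below it.

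The other 7 genes with a Gpx symbol were dim, with means between 1.62 and 3.89. Gpx8, a peroxidase of the endoplasmic reticulum, had the smallest p of the class and read 3.84, 4.19, 3.99, 3.78 and 3.24 in KO livers, against 3.57, 3.36 and 3.16 in WT livers. KO livers 1 to 4 lay above the WT livers and KO liver 5 among them (log2 difference 0.45, SE 0.204, unadjusted p = 0.0529, adjusted p = 0.831 with limma). Gpx6, known from the olfactory epithelium, had the largest absolute difference of the 42 genes, -0.80 (SE 0.393, unadjusted p = 0.0671). It read 2.37 to 3.82 in KO livers, against 3.55, 3.73 and 5.01 in WT livers. WT liver 3 alone was high, and the log2 difference was -0.35 without it. Gpx3, mainly a plasma enzyme made in kidney, had a log2 difference of -0.22 (SE 0.306), and Gpx2, the gastrointestinal form, one of 0.06 (SE 0.34). The differences of Gpx5, Gpx7 and Gpx2-ps1 were 0.02 (SE 0.126), 0.00 (SE 0.133) and 0.19 (SE 0.326).

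No peroxiredoxin or superoxide dismutase had an unadjusted p under 0.05. Prdx2, a cytosolic form, and Prdx3, the mitochondrial form, had log2 differences of -0.02 (SE 0.129) and -0.04 (SE 0.121). Prdx4, which works in the endoplasmic reticulum, read 5.38, 5.22, 4.80, 4.38 and 4.77 in KO livers, against 4.90, 5.40 and 5.27 in WT livers. As in Mgst3, KO livers 3 to 5 were the low ones and KO livers 1 and 2 lay in the WT range (log2 difference -0.28, SE 0.226, adjusted p = 0.892 with limma). Sod1, the cytosolic copper-zinc enzyme, had a log2 difference of -0.04 (SE 0.119), with a 95% interval of -0.30 to 0.23. Sod2, the mitochondrial manganese enzyme, read 9.79, 9.79, 9.64, 9.47 and 9.81 in KO livers, against 9.70, 9.83 and 9.72 in WT livers (log2 difference -0.05, SE 0.13). KO liver 4 was the lowest in both Sod1 and Sod2, and the other livers overlapped. The extracellular Sod3 had a log2 difference of 0.01 (SE 0.23), with KO livers spanning 5.38 to 6.46 and WT livers 5.52 to 5.96.

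Among the glutaredoxins, KO livers 1 and 2 stood off from the other livers in 3 of 4 genes. Glrx, the cytosolic glutaredoxin, read 8.07, 8.10, 8.56, 8.67 and 8.71 in KO livers, against 8.87, 8.94 and 8.71 in WT livers. KO livers 1 and 2 were far below the rest, and KO liver 5 lay just above WT liver 3. The log2 difference of -0.42 (SE 0.183, unadjusted p = 0.0446, adjusted p = 0.819 with limma) was -0.19 without KO livers 1 and 2 (unadjusted p = 0.222). Glrx5 and Glrx3 serve iron-sulfur proteins. Glrx5 was also lowest in KO livers 1 and 2, at 8.49 and 8.59, against 8.85 to 9.13 in the other KO livers and 8.74 to 8.79 in WT livers (log2 difference 0.04, SE 0.161). Glrx3 went the other way, with 5.76 and 6.34 in KO livers 1 and 2, against 5.28 to 5.54 in the other KO livers and 5.30 to 5.53 in WT livers (log2 difference 0.26, SE 0.217). The mitochondrial Glrx2 was dim, with a log2 difference of 0.05 (SE 0.152).

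Neither Gss nor Gsr, which make and regenerate glutathione, had an unadjusted p under 0.05. Gss, which joins glycine to complete the tripeptide, read 7.71, 7.51, 7.29, 7.37 and 7.43 in KO livers, against 7.63, 7.65 and 7.62 in WT livers. KO liver 1 lay above the WT livers and the other KO livers below them (log2 difference -0.17, SE 0.132, adjusted p = 0.891 with limma). Gsr, glutathione reductase, had a log2 difference of -0.12 (SE 0.143), with 8.09 to 8.54 in KO livers and 8.25 to 8.48 in WT livers.

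**Figure D3:**
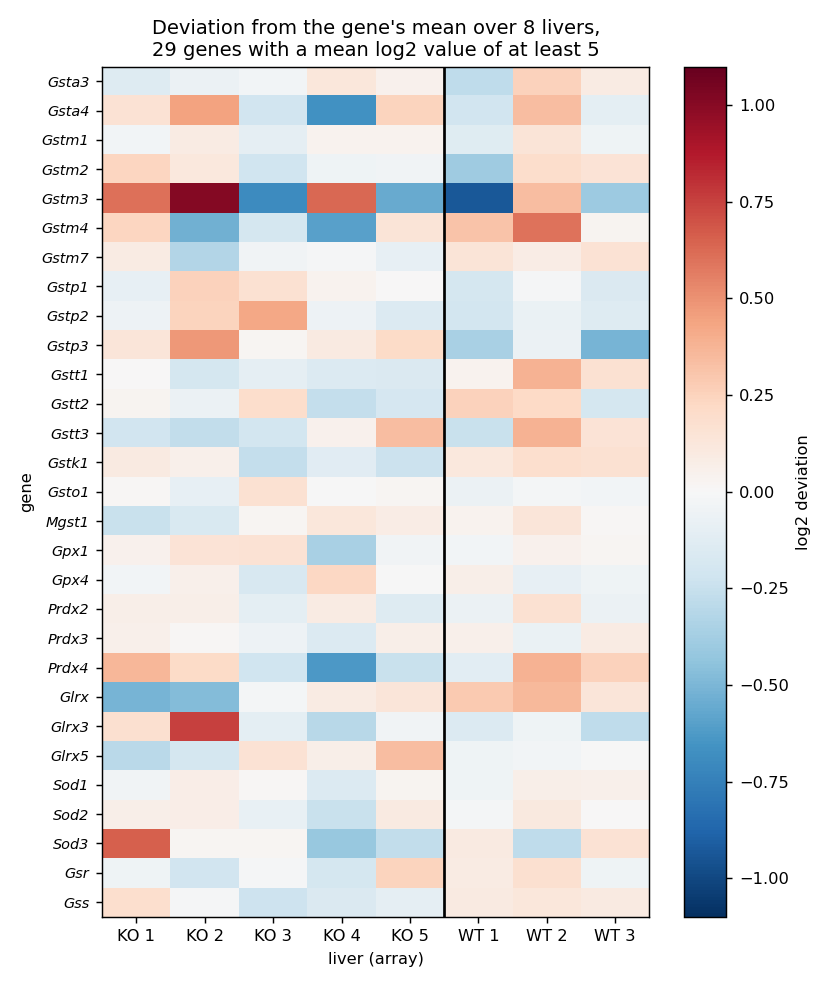
Deviation of each liver from the gene's own mean over all 8 livers (log2, colour scale), for the 29 genes with a mean of at least 5, with KO livers left of the line and WT livers right of it. KO livers 1 and 2 are low in Glrx and Glrx5, KO liver 4 is low in Gsta4, Gpx1 and Prdx4, and Gstm3 varies most.

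Much of the variation lay among the KO livers. The median SD over the 42 genes was 0.2 among KO livers and 0.145 among WT livers, beside 0.241 and 0.193 over all clusters tested. KO liver 4 had the lowest value of all 8 livers in 10 of the 29 genes with a mean of at least 5, while it was lowest in 27.1% of all clusters with such a mean, so the low values of that array were not limited to these enzymes. Without KO livers 1 and 2, 7 of the 42 genes (16.7%) had an unadjusted p under 0.05, beside 5.98% of all clusters in that fit, and 11 (26.2%) did not overlap, beside 11.6% of all clusters. Of the 7, only Gstp3 was higher, and Gstk1, Gstm4, Gstt4, Gpx6, Mgst3 and Prdx4 were lower. Mgst3 and Prdx4 then had log2 differences of -0.58 (SE 0.183) and -0.54 (SE 0.193), and the adjusted p of the 42 genes stayed above 0.05 in limma. KO liver 4 was the lowest KO liver in both Mgst3 (4.26) and Prdx4 (4.38).

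**Figure D4:**
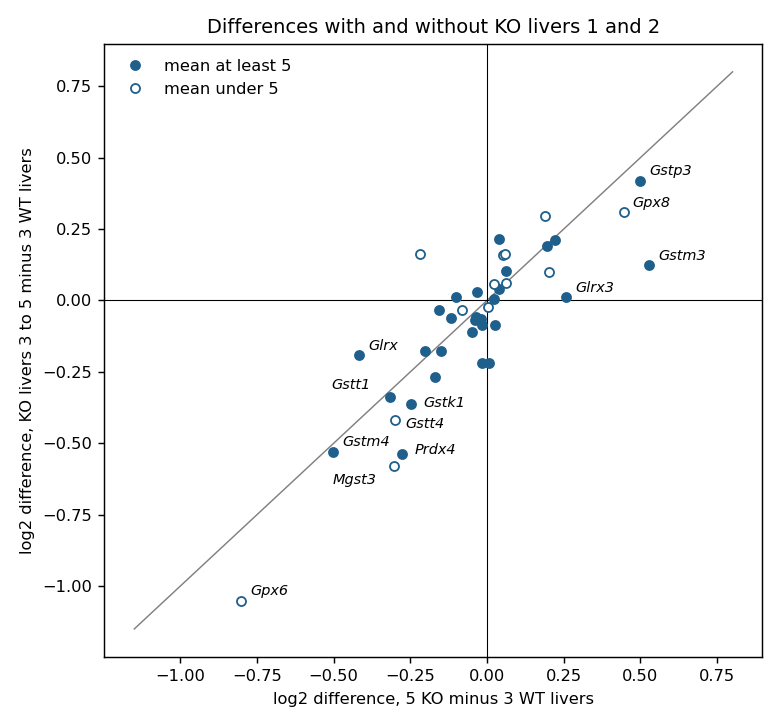
Log2 difference of each of the 42 genes over all livers (horizontal axis) against the difference without KO livers 1 and 2 (vertical axis), filled where the mean log2 value is at least 5, with the diagonal marking equal values. Gstp3 and Gstt1 lie near the diagonal, Mgst3 and Prdx4 lie below it, and Glrx lies above it.

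Genes around the family gave few differences. Lists made up mostly of genes with a mean of at least 5 stand beside a median log2 difference of -0.04 over all clusters with such a mean, of which 4614 of 7699 were lower. Of 18 genes of glutathione synthesis, breakdown and export, 8 were higher and 10 lower, with a median log2 difference of -0.07, and none had an unadjusted p under 0.05. Oplah, 5-oxoprolinase, which returns a breakdown product of glutathione to glutamate, read 8.62 to 8.76 in KO livers, against 8.85 to 9.08 in WT livers, and the groups did not overlap (log2 difference -0.25, SE 0.119, adjusted p = 0.838 with limma). The aminopeptidase Anpep did not overlap either, with 8.72 to 8.96 in KO livers, against 8.97 to 9.07 in WT livers (log2 difference -0.15, SE 0.12). These were the 2 of 18 genes without overlap, both below WT, beside 2.44% of all clusters. Of 8 genes of methionine and cysteine metabolism, not all of them steps towards cysteine, 3 were higher and 5 lower. Their median log2 difference was -0.02, and none had an unadjusted p under 0.05. Cth, cystathionine gamma-lyase, was at 0.21 (SE 0.156) and the dim Bhmt at -0.51 (SE 0.33).

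In the thioredoxin and catalase list, 6 of 16 genes were higher and 10 lower, with a median log2 difference of -0.10 and none at an unadjusted p under 0.05. Txnrd2, mitochondrial thioredoxin reductase, had a difference of -0.32 (SE 0.184), and -0.50 without KO livers 1 and 2, and Txn1, thioredoxin, one of -0.20 (SE 0.132). Of 8 measured genes of NADPH supply, 1 was higher and 7 lower, with a median of -0.14, Idh1 at -0.19 (SE 0.122) and Pgls at -0.19 (SE 0.166), and none had an unadjusted p under 0.05. Of 12 measured sources of superoxide and peroxide, 4 were higher and 8 lower, with a median of -0.07 and the smallest p in Duox2 (-0.30, SE 0.147) and Dao (0.25, SE 0.18), both dim.

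Of 15 measured enzymes and proteins with a glutathione link outside the rule, 7 were higher and 8 lower, with a median of -0.06. Clic5, an intracellular channel protein with a transferase-like fold, had a log2 difference of 0.47 (SE 0.171, unadjusted p = 0.0188, adjusted p = 0.795 with limma), and Ptges2 one of -0.24 (SE 0.159). Clic5 was the 1 gene of this list at an unadjusted limma p under 0.05, beside 2.75% of all clusters higher at that p. Selenocysteine, the residue at the active centre of Gpx1 and Gpx4, needs its own synthesis enzymes, and of 9 measured genes of that list 3 were higher and 6 lower, with a median log2 difference of -0.06. Of these 9, 2 had an unadjusted limma p under 0.05, both lower, beside 3.32% of all clusters lower at that p. Sephs1, related to selenophosphate synthetase, read 6.27 to 6.77 in KO livers, against 6.79 to 7.03 in WT livers (log2 difference -0.32, SE 0.144, unadjusted p = 0.0464, adjusted p = 0.82 with limma). It was the 1 gene of this list without overlap, beside 2.44% of all clusters below WT. Pstk, the kinase that prepares the selenocysteine transfer RNA, had a log2 difference of -0.42 (SE 0.188, unadjusted p = 0.0464, adjusted p = 0.82 with limma).

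Of 12 genes that encode known regulators of the family or report on them, 7 were higher and 5 lower, with a median log2 difference of 0.04. The 5 lower genes include Keap1 (-0.14), which represses NRF2, so the count mixes genes of opposite action. Of the 12, 1 gene, Hmox1, had an unadjusted p under 0.05 in limma, beside 2.75% of all clusters higher at that p. The groups did not overlap in 2, Hmox1 and Nfe2l2, both above WT, beside 1.99% of all clusters. Hmox1, heme oxygenase and a target of NRF2, read 8.52, 7.85, 6.74, 7.17 and 6.997 in KO livers, against 6.48, 6.49 and 6.69 in WT livers. No KO liver overlapped the WT livers, and KO livers 1 and 2 were far above the others (log2 difference 0.90, SE 0.348, unadjusted p = 0.0259, adjusted p = 0.795 with limma, and 0.41 without KO livers 1 and 2). Nqo1, another target of NRF2, had a log2 difference of -0.44 (SE 0.204), opposite in sign to Hmox1. Nfe2l2, which encodes NRF2 and was named after its values were seen, read 8.47 to 8.69 in KO livers, against 8.32 to 8.44 in WT livers, a log2 difference of 0.18 (SE 0.118).

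NRF2 binds the antioxidant response element, so 1 written form of its core, TGACNNNGC, was searched on both strands of the same windows. Forms that differ in a letter were not searched. The TGAGTCAGC in the Gstp1 and Gstp2 windows above differs from this form by 1 letter, G for C, and was not counted, so the search does not show which genes lack the element. The searched form was found in 4 of the 37 members with a promoter in the table (10.8%), beside 14% of the 27025 genes. The 4 matches are shown with the core in capitals, at chr1:21240444-21240492 on the plus strand (Gsta3), chr3:107931715-107931763 on the minus strand (Gstm7), chr6:138140451-138140499 on the plus strand (Mgst1) and chr16:90220686-90220734 on the plus strand (Sod1). In Mgst1 and Sod1 the core reads on the opposite strand.
Gsta3: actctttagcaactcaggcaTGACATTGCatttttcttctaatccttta
Gstm7: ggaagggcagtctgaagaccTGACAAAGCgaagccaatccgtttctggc
Mgst1: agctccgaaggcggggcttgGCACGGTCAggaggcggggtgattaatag
Sod1: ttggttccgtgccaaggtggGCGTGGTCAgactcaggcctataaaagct

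These 4 genes had log2 differences of -0.03, -0.20, -0.10 and -0.04, and the groups overlapped in each. A match of letters is a description of the window and not a binding site.

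Markers of other cells were checked beside these values. In whole liver, fewer cells of a type and less RNA per cell cannot be told apart. Over 7 macrophage markers the mean log2 level lay between 5.76 and 6.93 in KO livers and between 5.86 and 6.33 in WT livers. KO livers 1 to 3 read 6.83, 6.53 and 6.93, above all WT livers, and KO livers 4 and 5 read 5.76 and 6.06. Over 5 of 7 cholangiocyte markers it lay between 3.55 and 3.74 in KO livers and between 3.45 and 3.78 in WT livers. Neutrophil, exocrine pancreas and skeletal muscle lists had no marker with a mean of 5 or more. Of 7 muscle markers, 2 had an unadjusted limma p under 0.05, beside 6.08% of all clusters. Ckm was lower without overlap (log2 difference -0.54), beside 2.44% of all clusters below WT, and Actn3 was higher (0.33). Of 9 erythroid markers only Slc4a1 had its own cluster, and it was dim. The mean log2 level of the 8 gallbladder and intestine markers did not overlap, at 3.32 to 3.60 in KO livers and 3.62 to 3.82 in WT livers. No single marker of this list separated the genotypes. Only Fabp2 reached a mean of 5 (log2 difference -0.42), while Muc2 (0.04) and Krt20 (0.07) were higher in KO liver and the rest lower. The summed level of these 8 markers on the linear scale was 443 to 701 in KO livers and 697 to 868 in WT livers, so by this measure the groups overlapped. Its part in the differences above was not tested.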

How the data were processed

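Liver RNA of 5 KO and 3 WT mice was measured on 1 Mouse Gene 2.0 ST array each, and groups came from the sample titles. Nothing lists the animals, litters or batches, so the spread behind each p-value is that between these samples and may be technical. The authors deposited log2 values for 41345 transcript clusters. RMA and oligo are named per the submitters' processing notes and Expression Console in the design text. Which of them made the values, and their versions, settings and filters, are not known here. The log2 scale was read from the range, 0.409 to 13.27. RMA as commonly run compresses differences of dim clusters.

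The platform annotation gave 1 symbol to 23521 clusters, several to 1814 and none to 16010. All 42 members matched an Entrez gene in RefSeq's GRCm38.p6 table, with 0 symbols changed. KO minus WT was fitted over all clusters with 1 symbol with limma 3.58.1 in R 4.3.3 (lmFit, eBayes, 6 residual degrees of freedom), with Benjamini-Hochberg adjustment over 23521 clusters and two-sided tests. The fit was tested on simulated data. Members, lists and tests were chosen with earlier results of these data known. Array values were printed for genes with an unadjusted p under 0.05, with no overlap, or with the smallest p of their class, and for others chosen after their values were seen. From each list, the 2 genes with the smallest p and any with an unadjusted p under 0.05 were named. Alternatives were trend and robust priors, a mean filter of 5, all clusters, quantile or median scaling, array weights, the mean of a gene's clusters, a replicate block, and leaving out arrays. Promoters were aligned globally with Biopython. Precision is limited by the number of arrays.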

Additional observations from a re-analysis of the deposited data

Results flagged for a closer look

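Among 59 genes checked for a KO liver far from the other 4, a check that chance trips in about 1 in 20 groups, 3 stood out. Gsto2 read 3.136 in KO liver 5, where the next KO liver read 2.559. Oplah read 8.616 in KO liver 4, where the next lowest read 8.724, and all KO livers still lay below the WT livers. Ptges2 read 5.469 in KO liver 5, where the next lowest read 5.877.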

How the results depend on the processing

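No member passed an adjusted p of 0.05 under any alternative run. The count of clusters past it over the whole table, 0 as reported, was 3 with trend and robust priors, 1 with the mean filter, 3 with all clusters fitted and 1 with the replicate block, and 0 in the other alternatives. Members at an unadjusted p under 0.05, 4 as reported, numbered 6 with trend and robust priors, 5 with the mean filter, 5 with array weights and 2 with all clusters fitted. They numbered 7 without KO livers 1 and 2 (16.7%, beside 5.98% of all clusters), and 2 to 4 when 1 array was left out. Members without overlap, 3 as reported, numbered 11 without KO livers 1 and 2 and 3 to 6 when 1 array was left out. Leaving out arrays can only keep or raise this count. Over all clusters the share was 4.43% with all livers and 11.6% without KO livers 1 and 2. For 1 array left out, shares over all clusters are not given here, so those counts are not read as a trait of the members. The sign of the log2 difference turned in 17 of the 42 genes when 1 array was left out and in 6 without KO livers 1 and 2, together 19 genes, none of which had an unadjusted p under 0.05. Of the genes with the smallest p of their class, Gsta3 and Sod2 were among them. Gsta3 was 0.0277 without KO livers 1 and 2, and lay between -0.1838 and 0.0832 when 1 array was left out, and Sod2 between -0.0793 and 0.0060. Same-numbered livers did not clearly deviate together (correlations of -0.05, 0.02 and 0.02), though WT liver 2 correlated best with the KO liver of its own number. So few pairs cannot exclude a pairing by replicate number. With the block, 3 members had an unadjusted p under 0.05. These were Gstp3, Glrx and Gpx8, so that Gstt1 and Gstm4 no longer did and Gpx8 was added. The Abhd15 difference lay between -0.61 and -0.43 when 1 array was left out. The median over all clusters, -0.0018 as reported, was 0.0123 after a further quantile normalization and 0.0003 after median centring. The cause of these shifts was not tested.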
